A study of Mus musculus with 9 samples.

Results

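The receptors, accessory chains and decoys of the IL-1 family were followed in the skin of *Supt6*-KO and control mice. The 9 genes were chosen by symbol for what their products do, namely *Il1r1*, *Il1rl2*, *Il1rl1*, *Il18r1*, *Il1rap*, *Il18rap*, *Il1r2*, *Il18bp* and *Sigirr*. All 9 had a value among the 17943 genes of the count table, and all 9 were among the 16426 genes that were tested. Bulk mRNA sequencing had been done on the skin of 5 control and 4 *Supt6*-KO mice, taken on day 10 after the last injection, in order to see how the skin changes when SPT6, a transcription elongation factor, is lost from the epidermis. The *Supt6*-KO mice carried K14-CreERT and *Supt6* fl/fl alleles and had received tamoxifen intraperitoneally. The controls were, by the study's methods, *Supt6* fl/fl mice given corn oil, whereas the sample labels call them wild type, and the groups therefore differed in the Cre transgene and in tamoxifen as well as in the deletion. The labels name ear as the tissue and the methods name dorsal skin. The K14 promoter limits the deletion to basal keratinocytes, other K14-expressing epithelial cells and the cells that arise from them. The dermal and immune cells of the sample therefore kept the gene. In single epidermal cells, the study reports lower *Supt6* in basal, suprabasal and dividing keratinocytes. Ages are not given in the sources used here, beyond tamoxifen having been started in the first telogen, a resting phase of the hair cycle.

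The cytokines of the IL-1 family act through pairs of receptor chains, a chain that binds the ligand and an accessory chain, and the TIR domains of the pair recruit MYD88 and lead to NF-κB activation. IL1RAP is the accessory chain for the receptors of IL-1, IL-33 and IL-36, while IL18RAP completes the receptor of IL-18. The pathway is restrained by IL1R2, which binds IL-1 without signalling, by secreted IL18BP, which captures IL-18, and by SIGIRR, an inhibitory member of the receptor family. In skin, keratinocytes are a known source of IL-1, IL-18, IL-33 and IL-36 and also respond to several of them.

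The 6 receptor genes of this family that lie on mouse chromosome 1 follow each other on the forward strand within 467.0 kb, in the order *Il1r2*, *Il1r1*, *Il1rl2*, *Il1rl1*, *Il18r1* and *Il18rap*. Promoter sequences from RefSeq (GRCm38.p6, the mm10 assembly), from 250 bases before to 50 bases after an annotated start site, were found for 8 members, with 12 windows between them. The letters GGAANTTCC, which read the same on both strands and overlap in their letters with the binding sequences of NF-κB and STAT factors, were searched for after the promoter sequences had been seen. They occurred in 0.928% of the 32851 mouse promoter windows, and in 4 of the 12 member windows, each of a different gene of the chromosome 1 cluster. Since the letters were picked from the members' own sequences, nothing is read from the difference between these shares. These 4 stretches are shown because they belong to neighbouring genes of which 2 rose and 2 did not pass the test, with the matched letters in capitals.
*Il1r2* (chr1:40085977-40086005, forward strand): gctttttcaaGGAACTTCCgactactctg
*Il1rl2* (chr1:40324463-40324491, forward strand): cattgcttaaGGAATTTCCtgcttctccc
*Il1rl1* (chr1:40439626-40439654, forward strand): ggtaagtttaGGAATTTCCagtaagtgag
*Il18rap* (chr1:40515333-40515361, forward strand): atttggtacaGGAAATTCCtgtaaaggaa
Positions are counted from the annotated start site of each window. The match of *Il18rap* spans bases -19 to -11 before that site, that of *Il1r2* bases -106 to -98, that of *Il1rl2* bases -116 to -108, and that of *Il1rl1* bases 7 to 15 after it. For *Il1rl1* (window 40439379 to 40439678) and *Il1r2* (window 40085843 to 40086142) the site lies inside the gene. The first bases of these genes are 40404864 and 40084692. The AP-1 letters TGANTCA, searched on both strands, were in 7.81% of all windows and in 0 of the 12 member windows. A match to the NF-κB consensus was in 8.46% of all windows and in a window of *Il1r1* alone among the members. These matches describe letters only, and no binding was measured in these samples.

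The authors deposited estimated counts per gene, which summed to between 29627341 and 30491197 in the controls and between 30597189 and 30967107 in the *Supt6*-KO mice. Values are given as CPM, counts scaled to a common library size, after TMM, a method that sets libraries to each other by the bulk of their genes. TMM factors of 1.198 to 1.315 (controls) and of 0.674 to 0.91 (*Supt6*-KO mice) show that the scaling matters. Over all genes tested, the median log2 change was -0.07 with TMM and -0.76 when libraries were scaled by their totals alone, and changes are read against the first of these. Groups were compared with edgeR's quasi-likelihood test, adjusted over all genes tested by the Benjamini-Hochberg method, with a call at adjusted p under 0.05. In whole skin, fewer cells of a type and less RNA per cell cannot be told apart. The sample titles give each library as a separate mouse, so the spread within a group is that between animals.

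The targeted gene was lower in the mice labelled knockout. *Supt6* had 74.5, 56.6, 63.6, 91.1 and 96.7 CPM in control mice 1 to 5 and 28.6, 24.1, 21.9 and 28.4 CPM in *Supt6*-KO mice 1 to 4. All *Supt6*-KO mice lay below all controls, with a log2 fold change of -1.57 (SE 0.18, adjusted p = 1.3e-05, edgeR). The samples had the keratins of skin in plenty, with *Krt10*, a keratin of the suprabasal epidermis, at 14340 CPM in the controls and 16350 CPM in the *Supt6*-KO mice. *Supt6*-KO mouse 4 stood apart from the other *Supt6*-KO mice, with the highest TMM factor of the group (0.91), the lowest *Il1r2* and the highest *Il33*, the gene of the ligand of IL1RL1. Results that rest on it are given with and without it.

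Of the 9 members, 3 were higher in *Supt6*-KO skin (*Il18rap*, *Il18bp* and *Il1rl1*), 3 were lower (*Il18r1*, *Il1rap* and *Sigirr*) and 3 did not pass the test (*Il1r1*, *Il1rl2* and *Il1r2*). Across all genes tested, 71.0% were called, 34.1% higher and 36.8% lower, so the shares called among the members are close to the background and the members are described gene by gene. The median log2 fold change of the members was 0.27, against -0.07 for all genes tested. At least 2-fold changes were called for *Il18rap* and *Il18bp*, both higher, beside 20.9% of all genes higher and 24.9% lower by that rule. *Il18bp* ranged from 0.31 to 1.16 on the log2 scale over the 17 alternatives tried, so whether it reached 2-fold depended on the setting. The groups did not overlap for 4 members, with all *Supt6*-KO mice above for 3 and below for 1, against 28.9% above and 31.8% below among all genes tested.

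**Figure D1:**
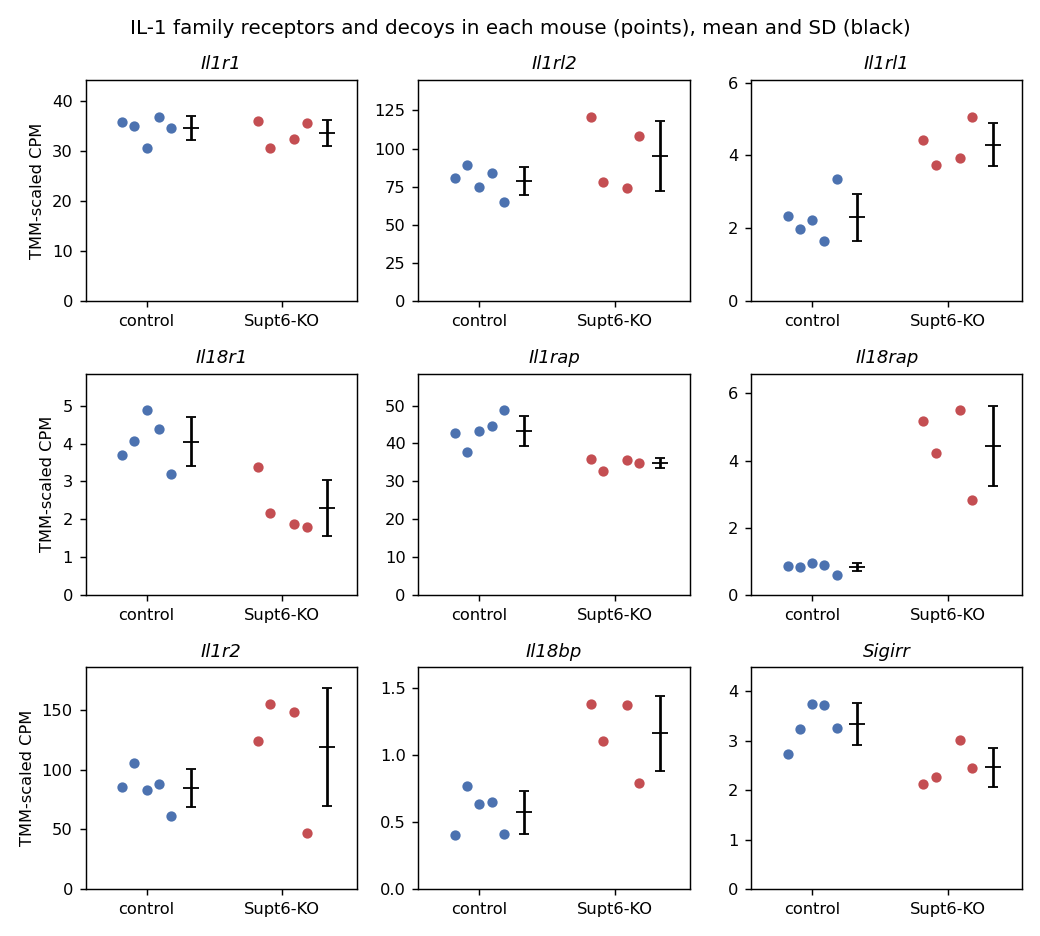
Each panel shows a member gene, with TMM-scaled CPM on the vertical axis from 0 and a point for each of the 5 control (blue) and 4 *Supt6*-KO (red) mice. Black marks are the group mean and SD. All *Supt6*-KO points lie above all control points for *Il1rl1*, *Il18rap* and *Il18bp*, and all lie below for *Il1rap*.

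The largest change among the members was in the IL-18 receptor, whose 2 chains moved in opposite directions. *Il18rap* (NCBI gene 16174, forward strand of chromosome 1 from 40515362 to 40551707), which encodes the accessory chain of that receptor, had 0.856, 0.849, 0.941, 0.892 and 0.611 CPM in control mice 1 to 5. In *Supt6*-KO mice 1 to 4 it had 5.18, 4.22, 5.49 and 2.84 CPM. Every *Supt6*-KO mouse was above every control, and the lowest *Supt6*-KO value was that of mouse 4. *Il18rap* rose by 2.41 on the log2 scale (SE 0.24, 95% confidence interval 1.89 to 2.93, adjusted p = 5.1e-06, edgeR). The group means were 0.830 ± 0.128 CPM (SD, n = 5) and 4.43 ± 1.19 CPM (SD, n = 4). These levels rest on 24 to 34 counts per control mouse and 79 to 124 counts per *Supt6*-KO mouse. The change passed the test in all 17 alternatives tried, with log2 fold changes from 1.70 with library totals to 2.57 without *Supt6*-KO mouse 4.

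*Il18r1* (NCBI gene 16182, chromosome 1 from 40465552 to 40500854), the chain that binds IL-18, had 3.69, 4.08, 4.87, 4.38 and 3.18 CPM in control mice 1 to 5. In *Supt6*-KO mice 1 to 4 it had 3.38, 2.16, 1.88 and 1.80 CPM. *Supt6*-KO mouse 1 lay within the control range and the other 3 lay below it. *Il18r1* fell by 0.81 on the log2 scale (SE 0.23, 95% confidence interval -1.31 to -0.30, adjusted p = 0.008, edgeR) and remained past the threshold in all 17 alternatives tried, with log2 fold changes from -1.50 to -0.57. The counts were 125 to 176 per control mouse and 41 to 81 per *Supt6*-KO mouse.

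Since both chains are counted in the same library, their ratio does not depend on the scaling between mice, though it does not remove a trend on length. The *Il18rap* to *Il18r1* ratio of counts, chosen after the values had been seen and given with no test, was 0.232, 0.208, 0.193, 0.204 and 0.192 in control mice 1 to 5 and 1.53, 1.96, 2.93 and 1.58 in *Supt6*-KO mice 1 to 4. All *Supt6*-KO mice lay above all controls, and the geometric means differed 9.4-fold. Ratios of counts are not corrected for transcript length, so they are compared between mice and do not say which chain was the more abundant. Per kilobase of transcript (the median length of the gene's annotated transcripts), *Il18rap* rose from 0.427 ± 0.066 to 2.28 ± 0.61 CPM per kb and *Il18r1* fell from 1.70 ± 0.27 to 0.971 ± 0.311 CPM per kb (SD, n = 5 and 4).

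The secreted IL-18 decoy rose as well, but less than its ligand. *Il18bp* (NCBI gene 16068, reverse strand of chromosome 7 from 102015074 to 102018232) had 0.401, 0.767, 0.637, 0.649 and 0.407 CPM in control mice 1 to 5 and 1.38, 1.10, 1.37 and 0.790 CPM in *Supt6*-KO mice 1 to 4. All *Supt6*-KO mice lay above all controls, although *Supt6*-KO mouse 4 was only just above control mouse 2. *Il18bp* rose by 1.01 on the log2 scale (SE 0.29, 95% confidence interval 0.38 to 1.65, adjusted p = 0.008, edgeR). It rests on 15 to 33 counts per mouse, and with library totals it was 0.31 and did not pass the test (adjusted p = 0.33, edgeR). In the GENCODE annotation *Il18bp* shares 80 bases with *Numa1* on the opposite strand. In the RefSeq coordinates used for the positions given here, *Numa1* ends at 102014959, before *Il18bp* begins. The sources used here do not say which annotation was counted or whether counting used strand. *Numa1*, named for this overlap after its value was seen, was lower in all *Supt6*-KO mice (log2 fold change -1.89, adjusted p = 3.8e-06, edgeR).

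*Il18*, the gene of the ligand itself, had 39.8 ± 6.8 CPM in the controls (SD, n = 5) and 414 ± 192 CPM in the *Supt6*-KO mice (SD, n = 4), with all *Supt6*-KO mice above all controls and a log2 fold change of 3.38 (SE 0.32, adjusted p = 4.1e-06, edgeR). The ratio of *Il18bp* to *Il18* counts was 0.0108, 0.0173, 0.0129, 0.0191 and 0.0119 in control mice 1 to 5. In *Supt6*-KO mice 1 to 4 it was 0.00345, 0.00178, 0.00289 and 0.00492, below all controls and 4.6-fold lower in the geometric mean. Relative to the receptor chain the decoy went the other way, with an *Il18bp* to *Il18r1* ratio of 0.109 to 0.188 in the controls and 0.407 to 0.732 in the *Supt6*-KO mice.

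Among the IL-1 receptors, neither the signalling receptor nor its decoy passed the test, and the call for the decoy depended on *Supt6*-KO mouse 4. *Il1r1* (NCBI gene 16177, chromosome 1 from 40222480 to 40316201), the signalling receptor of IL-1α and IL-1β, had 35.8, 35.0, 30.6, 36.8 and 34.5 CPM in control mice 1 to 5 and 35.9, 30.6, 32.4 and 35.6 CPM in *Supt6*-KO mice 1 to 4. The groups overlapped throughout, with a log2 fold change of -0.04 (95% confidence interval -0.27 to 0.19, adjusted p = 0.75, edgeR). That interval leaves out a change of 2-fold under this scaling. The value depended on the scaling, being -0.72 with library totals (adjusted p = 0.0012) and 0.59 when a trend of CPM on transcript length was removed from each mouse (adjusted p = 0.00035, both edgeR).

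*Il1r2* (NCBI gene 16178, chromosome 1 from 40084692 to 40125230), the decoy receptor, had 85.0, 105.5, 83.2, 88.2 and 61.2 CPM in control mice 1 to 5. *Supt6*-KO mice 1 to 3 had 124.2, 154.7 and 148.2 CPM, above all controls, and *Supt6*-KO mouse 4 had 47.2 CPM, below all controls. With all mice the log2 fold change was 0.49 (SE 0.29, 95% confidence interval -0.15 to 1.12, adjusted p = 0.15, edgeR). Without *Supt6*-KO mouse 4 it was 0.75 (SE 0.15, adjusted p = 0.0011, edgeR), so the call depends on this mouse. Library totals gave -0.26 with all mice. With the length trend removed the log2 fold changes were 0.21 for *Il1r2* and 0.59 for *Il1r1*, so which of the pair changed more depended on that choice. The *Il1r2* to *Il1r1* ratio of counts, free of the scaling between libraries but not of such a trend, was 2.38, 3.01, 2.72, 2.39 and 1.77 in control mice 1 to 5 and 3.46, 5.06, 4.57 and 1.32 in *Supt6*-KO mice 1 to 4, with the same mouse apart.

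The ligands that these receptors share moved more. *Il1b*, which encodes IL-1β, had 0.324 to 0.883 CPM in the controls and 51.4 to 126.0 CPM in the *Supt6*-KO mice, a log2 fold change of 7.09 (SE 0.38, adjusted p = 1.5e-07, edgeR). *Il1a*, the gene of IL-1α, rose by 1.48 (adjusted p = 0.00013) and *Il1rn*, the gene of the IL-1 receptor antagonist, by 0.90 (adjusted p = 0.00045, both log2 and edgeR), the latter not past the threshold with library totals (0.20, adjusted p = 0.31, edgeR). The ratio of *Il1rn* counts to those of *Il1a* plus *Il1b* was 5.37 to 6.03 in the controls and 0.832 to 2.11 in the *Supt6*-KO mice, without overlap.

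The IL-36 receptor gene did not pass the test although the genes of its ligands rose. *Il1rl2* (NCBI gene 107527, chromosome 1 from 40324589 to 40367555) had 80.9, 89.3, 75.1, 83.8 and 65.1 CPM in control mice 1 to 5 and 120.9, 78.2, 73.9 and 108.1 CPM in *Supt6*-KO mice 1 to 4. *Supt6*-KO mice 1 and 4 were above all controls and mice 2 and 3 were among them, and the change on the log2 scale was 0.27 (SE 0.16, 95% confidence interval -0.08 to 0.63, adjusted p = 0.15, edgeR). It was -0.39 with library totals and 0.58 with the length trend removed (adjusted p = 0.0083, edgeR). In the same libraries *Il1f6*, *Il1f8* and *Il1f9*, which encode the agonists IL-36α, IL-36β and IL-36γ, rose by 6.45, 4.33 and 2.63 on the log2 scale, and *Il1f5*, the gene of the IL-36 receptor antagonist, rose by 3.80, each with all *Supt6*-KO mice above all controls and adjusted p of at most 7.1e-06 (edgeR). *Il1f10*, which encodes IL-38, fell by 1.21 (adjusted p = 0.022, edgeR) and lost the call without *Supt6*-KO mouse 3 (-1.10, adjusted p = 0.065).

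*Il1rl1* (NCBI gene 17082, chromosome 1 from 40404864 to 40465418), the gene of ST2, the receptor of IL-33, had 2.33, 1.97, 2.24, 1.65 and 3.36 CPM in control mice 1 to 5. In *Supt6*-KO mice 1 to 4 it had 4.43, 3.74, 3.93 and 5.07 CPM. All *Supt6*-KO mice were above all controls, with control mouse 5 nearest to them. *Il1rl1* rose by 0.89 on the log2 scale (SE 0.22, 95% confidence interval 0.41 to 1.38, adjusted p = 0.0034, edgeR), and by 0.80 without *Supt6*-KO mouse 4 (adjusted p = 0.0085). With library totals it was 0.21 and did not pass the test (adjusted p = 0.50, edgeR). A count per gene does not separate the membrane form of ST2 from the soluble decoy form that the same gene encodes.

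*Il33* itself did not pass the test with all mice and was decided by a single library. It had 67.2, 70.5, 70.9, 67.8 and 46.8 CPM in control mice 1 to 5 and 75.9, 48.1, 76.2 and 400.7 CPM in *Supt6*-KO mice 1 to 4. The log2 fold change was 1.22 with all mice (SE 0.52, adjusted p = 0.053, edgeR) and 0.04 without *Supt6*-KO mouse 4 (adjusted p = 0.84, edgeR). Over all 10 ligand genes, 8 rose, *Il1f10* fell and *Il33* was not called, beside 34.1% higher and 36.8% lower among all genes tested. The median log2 fold change of the ligands was 3.01, against -0.07 for all genes tested.

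The shared accessory chain and the inhibitory receptor were lower by less than 2-fold. *Il1rap* (NCBI gene 16180, forward strand of chromosome 16 from 26581509 to 26730128) had 42.7, 37.7, 43.3, 44.6 and 48.7 CPM in control mice 1 to 5 and 36.0, 32.9, 35.6 and 34.7 CPM in *Supt6*-KO mice 1 to 4. All *Supt6*-KO mice lay just below all controls. *Il1rap* had a log2 fold change of -0.32 (SE 0.10, 95% confidence interval -0.55 to -0.09, adjusted p = 0.016, edgeR), but it was 0.09 with the length trend removed (adjusted p = 0.39, edgeR), so its direction depended on that choice. The ratio of *Il1rl1* to *Il1rap* counts, also chosen after the values had been seen, was 0.037 to 0.069 in the controls and 0.111 to 0.146 in the *Supt6*-KO mice.

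*Sigirr* (NCBI gene 24058, reverse strand of chromosome 7 from 141091175 to 141100597) had 2.73, 3.23, 3.74, 3.73 and 3.26 CPM in control mice 1 to 5 and 2.13, 2.25, 3.02 and 2.44 CPM in *Supt6*-KO mice 1 to 4. *Supt6*-KO mouse 3 lay within the control range. The log2 fold change of -0.44 (SE 0.18, 95% confidence interval -0.84 to -0.04) had an adjusted p of 0.049 (edgeR). It was negative in all 17 alternatives tried and missed the threshold in 11 of these.

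**Figure D2:**
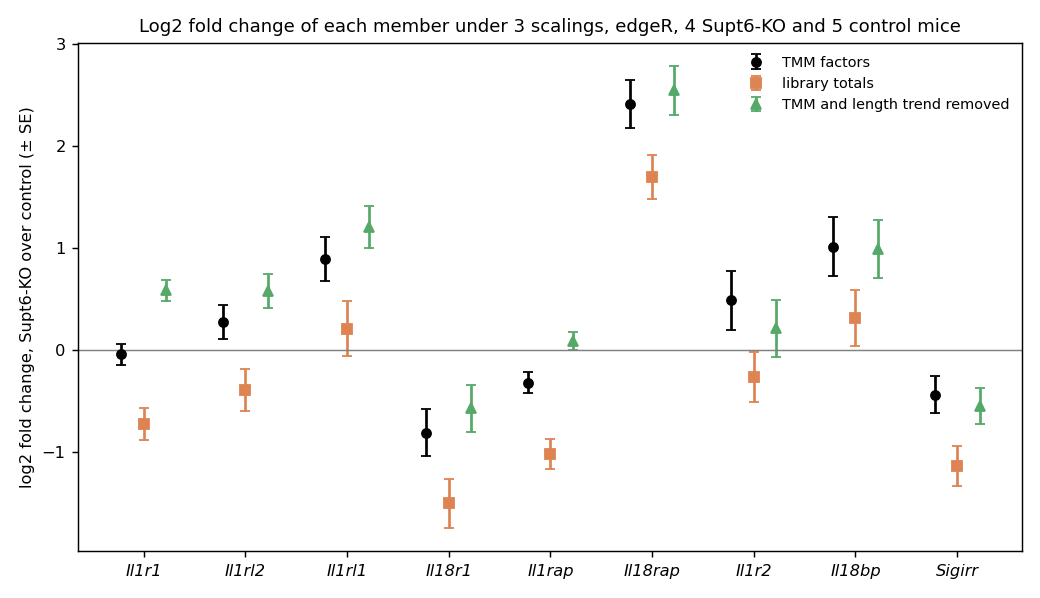
Log2 fold change of each member (*Supt6*-KO over control, vertical axis, bars ± SE, edgeR, 4 against 5 mice) with TMM factors (black), with library totals (orange) and with TMM and a trend on transcript length removed (green). *Il18rap* is above 0 and *Il18r1* below 0 in all 3, whereas *Il1r1*, *Il1rl2*, *Il1r2* and *Il1rap* change sign between them.

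Levels of different genes were set in order per length. In the deposited TPM values (scaled by the authors for transcript length and library size), available for the 5 controls, the order was *Il1r2* (126 ± 14 TPM), *Il1rl2* (33.6 ± 3.0), *Il1rap* (16.8 ± 3.6), *Il1r1* (12.3 ± 1.9), *Sigirr* (3.98 ± 0.59), *Il18r1* (2.98 ± 0.32), *Il1rl1* (0.830 ± 0.305), *Il18bp* (0.776 ± 0.172) and *Il18rap* (0.286 ± 0.030, all SD, n = 5). The control ranges of *Il1rap* and *Il1r1* overlapped, as did those of *Sigirr* and *Il18r1* and those of *Il1rl1* and *Il18bp*, so the order within these pairs is not set by the data. The genes of the IL-1 decoy and of the IL-36 receptor were thus the most abundant of the 9 members in control skin, and *Il18rap* was the least abundant, its range overlapping that of no other member. In CPM per kb in the *Supt6*-KO mice, *Il18rap* (1.46 to 2.83) overlapped with *Sigirr* (1.73 to 2.45) and *Il1rl1* (1.41 to 1.90) and did not overlap with *Il18r1* (0.757 to 1.43), which was lower. The deposited TPM of *Supt6*-KO mouse 4 gave another order, with *Il18rap* at 0.49, *Il18bp* at 0.54, *Il18r1* at 0.57, *Il1rl1* at 1.01 and *Sigirr* at 1.49, so the order of the 2 IL-18 receptor chains in the *Supt6*-KO mice depends on the lengths used.

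Neighbouring genes of the cluster did not share a direction. *Il1rl1*, which was higher, ends 133 bases before the annotated start of *Il18r1*, which was lower, and *Il18rap*, higher again, starts after a gap of 14507 bases, with all 3 on the same strand and no other gene of the count table between them. The genes at either side of the cluster, *Map4k4*, which encodes a kinase, and *Slc9a4*, which encodes a sodium-proton exchanger, had log2 fold changes of -0.70 (SE 0.16, adjusted p = 0.0022) and -0.49 (SE 0.44, adjusted p = 0.34, both edgeR). The sources used here do not name the annotation release behind the counts, and reads that run from a gene into the next cannot be told apart from its own in counts per gene.

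Genes downstream of these receptors moved in both directions. Of 26 genes for adaptors, kinases and NF-κB factors, 12 were higher and 10 lower, beside 34.1% and 36.8% of all genes tested, with a median log2 fold change of 0.10 against -0.07 for all genes. The largest increases were those of *Map3k8* (2.11), a kinase upstream of ERK, *Nfkbiz* (1.17), which encodes the NF-κB cofactor IκBζ, *Peli1* (1.03), a ubiquitin ligase, and *Mapk8* (0.93), which encodes JNK1. The largest decreases were those of *Rela* (-1.36) and *Nfkb2* (-1.35), both encoding NF-κB subunits, *Tnfaip3* (-1.04), which encodes the NF-κB inhibitor A20, and *Relb* (-0.88), a further subunit. These values are log2 fold changes with adjusted p of at most 0.0012 (edgeR). With library totals, 2 of the 26 were higher, *Map3k8* and *Nfkbiz*, and 14 were lower.

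Several of the receptors are known from immune cells as well as from keratinocytes, so marker lists were read in the same mice. Their counts of higher and lower markers stand beside 34.1% and 36.8% of all genes tested, and a share near these says nothing particular to a list. The summed level of the T and NK cell markers, a class known for the IL-18 receptor, was 121.6 to 138.2 CPM in the controls and 42.2 to 79.0 CPM in the *Supt6*-KO mice, without overlap. Of its 10 tested markers, 7 fell and 0 rose. *Thy1* (-0.89), which is also in the fibroblast list, was the most abundant and made up 79.2 of the 126.7 CPM of the mean control sum. Among the other markers, named after their values were seen, the largest falls by fold were those of *Cd3e* (7.85 to 0.443 CPM) and *Prf1* (3.19 to 0.0842 CPM). *Lck* (-0.23), *Cd2* (-0.26) and *Klrb1c* (-0.02) were not called. *Ncr1*, which marks NK cells, was at or near 0 in both groups. The level of *Il18rap* therefore rose in the mice in which the T and NK cell list fell, while *Il18r1* fell with it.

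The neutrophil list summed to 11.4 to 14.1 CPM in the controls and 39.9 to 99.3 CPM in the *Supt6*-KO mice, with 7 of 9 tested markers higher and 1 lower (*Mpo*, named after its value was seen, -4.62), *Retnlg* the most abundant (log2 fold change 6.59) and *Elane* at or near 0 in both groups. The macrophage list rose from between 279.4 and 498.8 CPM to between 789.9 and 1256 CPM, with 7 of 10 markers higher and *Lyz2* (2.79) the most abundant. For mast cells, known for ST2, the sums overlapped (83.3 to 195.1 CPM against 125.6 to 172.8 CPM), with 3 of 10 markers higher and 2 lower. *Mcpt4* (-0.16) was the most abundant mast cell marker in the controls, and *Cma1* (0.59) in the *Supt6*-KO mice (mean 44.2 against 39.4 CPM). The Langerhans and dendritic list fell from between 665.1 and 770.3 CPM to between 124.0 and 323.9 CPM, with 7 of 10 markers lower, 2 higher and *H2-Aa* (-1.65) the most abundant. Whether any of these shifts has a part in the values of *Il18rap*, *Il18r1*, *Il1rl1* or *Il1r2* was not tested.

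Of the structural lists, the keratinocyte sum was 28040 to 32040 CPM in the controls and 30080 to 41970 CPM in the *Supt6*-KO mice, with 6 of 10 markers lower, 1 higher and *Krt10* (0.19) the most abundant. The fibroblast sum (3229 to 10970 against 2174 to 4058 CPM, *Col3a1* the most abundant) and the adipocyte sum (224.2 to 410.6 against 278.3 to 424.3 CPM, *Fabp4*) overlapped between the groups, although 5 of 10 fibroblast and 4 of 6 adipocyte markers fell and 0 rose. The endothelial sum (81.3 to 186.7 against 58.3 to 68.5 CPM, *Pecam1*) and the skeletal muscle sum (3790 to 5034 against 783.2 to 1306 CPM) were lower in all *Supt6*-KO mice. Of 8 muscle markers, 7 fell. *Acta1* (-2.66) was the most abundant of them in the controls. In the *Supt6*-KO mice it was *Mylpf* (-0.36, not called), with a mean of 403.3 CPM against 233.7 CPM for *Acta1*. The melanocyte sum was higher in all *Supt6*-KO mice (46.7 to 65.2 against 99.7 to 177.0 CPM, *Dct* the most abundant).

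**Figure D3:**
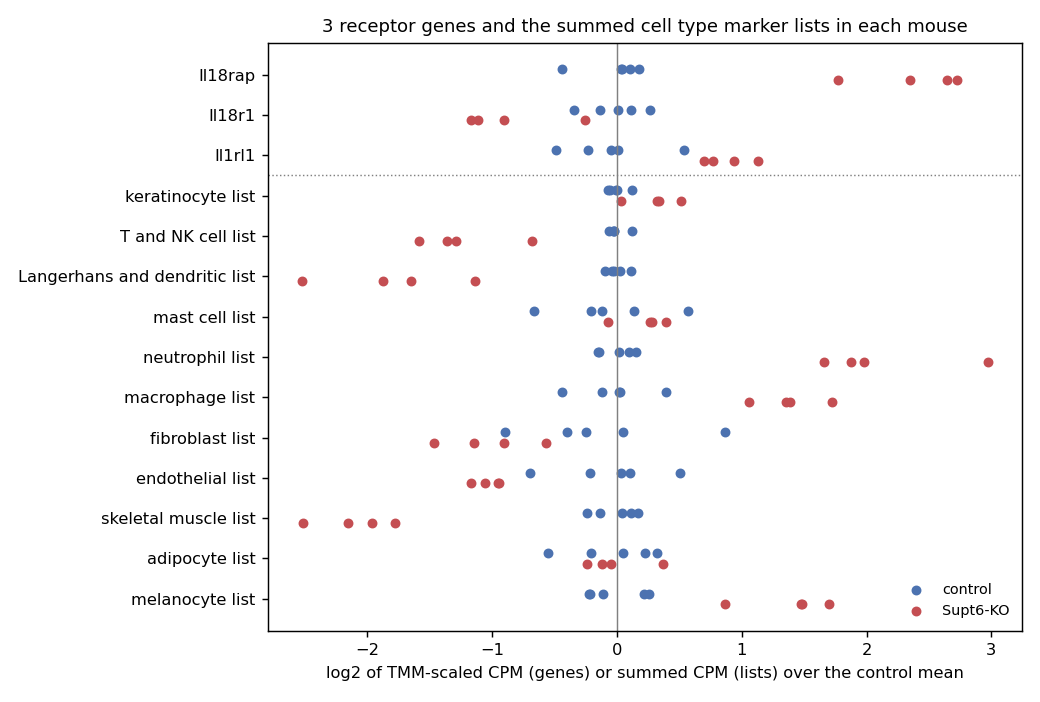
Log2 of the TMM-scaled CPM of *Il18rap*, *Il18r1* and *Il1rl1* and of the summed CPM of 11 cell type marker lists in each mouse, relative to the mean of the 5 controls (horizontal axis), with controls in blue and *Supt6*-KO mice in red. *Il18rap* and the neutrophil list lie to the right of the controls in all 4 *Supt6*-KO mice and the T and NK cell list to the left.

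The genes whose values over the 9 mice were nearest to those of *Il18rap*, by the root mean square difference of log2(CPM + 0.5) centred on the control mean, included *Slc37a2* (difference 0.149) and *Degs1* (0.162) among 13564 genes compared. Their fitted log2 fold changes were 1.86 and 1.81, below the 2.41 of *Il18rap*, because the added 0.5 CPM compresses a gene of its low level (1.86 on the scale of the comparison). The genes nearest to *Il18r1* were *Ssh3* (0.112), *Tlx1* (0.144) and *Nr1h2* (0.148), with log2 fold changes of -0.76, -0.72 and -0.58. These 5 genes are named for their likeness in level only.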

How the data were processed

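The authors aligned paired reads from BGI mRNA libraries to mm10 with Bowtie2 2.3.4.3 and ran RSEM 1.3.1, whose estimated counts for all 9 mice they deposited, not normalized between mice. They also deposited TPM for 6 mice (5 controls and *Supt6*-KO mouse 4), which was used here only to order levels and to derive effective lengths. HISAT and DESeq2 1.4.5 are listed in the submitters' processing notes without a stated part in the counts. The annotation release and strand setting are not given in the sources used here. Of the estimated counts, 9.0% were not whole, and all were rounded.

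Genes with fewer than 10 counts summed over the 9 mice were left out. Groups came from the sample titles and were compared with edgeR 4.0.16 (R 4.3.3) using TMM factors and no covariate. The SE of a log2 fold change is its size divided by the square root of the F statistic. Of the identifiers, 17917 matched a RefSeq gene and 26 did not. Other settings tried were upper-quartile factors, library totals, DESeq2 1.42.0, no filter, at least 10 counts in every mouse, a replicate block, leaving out the 50 genes of highest level, removal of a trend on transcript length (17866 genes with a length), and each mouse left out. Ratios and list sums were described with no test. The 9 members and the lists of ligands, signalling genes and markers were chosen with earlier results of these data known. Genes named were the members, the ligands, the 4 signalling genes that rose most and the 4 that fell most among those called, the most abundant gene of each marker list, *Supt6*, the neighbours of the chromosome 1 cluster and, among genes with a mean of at least 1 CPM, the 3 genes nearest in pattern to the called members of that level with the largest positive and negative change, with exceptions marked. The result for 1 of the genes nearest in pattern is not reported here. On simulated counts with the group sizes of this comparison (16347 genes), edgeR recovered 90% of 2-fold and 100% of 4-fold changes with 9 false calls. The simulation used a single dispersion for all genes and changed only a small share of them, none of low level. In the data 71.0% of genes were called, so these rates need not hold there. Tables were summarised with pandas 2.3.3 in Python 3.11.15. At 29627341 to 30967107 counts per mouse, depth limits *Il18bp* and *Il18rap* most.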

Additional observations from a re-analysis of the deposited data

Results flagged for a closer look

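In 94 groups of 4 or 5 mice examined by Dixon's test for a single distant mouse, 6 were beyond its 95% limit, where chance gives about 4.7. Among the members this held for *Il18rap* in control mouse 5, which had 0.611 CPM against a control median of 0.856 CPM, lower than the other controls and so further from the *Supt6*-KO mice. Among the ligands, *Il33* had 46.7 CPM in control mouse 5 (median 67.7) and 401 CPM in *Supt6*-KO mouse 4 (median 76.1). *Il1f8* had 91.1 CPM in *Supt6*-KO mouse 4 (median 317). The neutrophil marker list summed to 99.3 CPM in *Supt6*-KO mouse 3 (median 48.2), and the T and NK cell list to 138 CPM in control mouse 2 (median 125).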

How the results depend on the processing

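Over 27 named members, ligands and signalling genes and all alternatives tried, 430 values had the same direction and the same side of the threshold, 17 lost the call, 6 gained it and 5 changed sign; DESeq2 gave *Il33* no p-value. The sign changes were *Il1r1* with DESeq2 (0.025) and with the length trend removed (0.59), *Il1r2* (-0.26) and *Il1rl2* (-0.39) with library totals, and *Il1rap* with the length trend removed (0.089). Library totals gave 2771 genes higher and 8970 lower in place of 5608 and 6050, and left 1 member and 2 signalling genes higher. The length correction gave 5 members higher. With library totals the log2 of the summed marker levels (*Supt6*-KO over control) became -0.40 for keratinocytes, 1.49 for neutrophils, -0.47 for mast cells, -1.89 for T and NK cells, 0.68 for macrophages, -2.43 for Langerhans and dendritic cells, -1.74 for endothelium, -1.73 for fibroblasts, -2.80 for skeletal muscle, -0.68 for adipocytes and 0.71 for melanocytes. The causes were not tested. With each mouse left out, 5305 to 5729 genes were higher and 5669 to 6392 lower, 3 to 4 members higher and 2 to 3 lower, 8 to 9 ligands higher and 0 to 1 lower, and 11 to 12 signalling genes higher and 10 to 12 lower.

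Nothing in the labels pairs mice by number. With the replicate number as a block, 5251 genes were higher and 5800 lower, and *Sigirr* lost its call (-0.45, adjusted p = 0.062, edgeR); same-numbered mice had correlations of their deviations from -0.011 to 0.243. Depth limits *Il18bp* most, at 15 to 33 counts per mouse.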

Other observations

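For *Supt6*-KO mouse 4 and the controls, the deposited TPM and counts give the effective transcript length that RSEM assigned to each gene, relative to the control mean. It was 1.18 for *Il18r1* in *Supt6*-KO mouse 4 (0.944 to 1.07 in the controls), 0.892 for *Il1rl1* (0.949 to 1.05) and 0.961 for *Il1rap* (0.996 to 1.01), and it was 1.01 for *Il18rap* (0.991 to 1.01). Which transcripts of these genes were counted was not analysed here.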
